A study of Homo sapiens with 9 samples.

Results

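SNHG1, SNHG11, SNHG12 and SNHG15 are non-coding host genes of small nucleolar RNAs (snoRNAs). They were chosen by symbol, as hosts with large rises in UPF1/XRN1, so their values in that library are given as a description. They are 4 of the 50432 gene symbols that the authors' list of assembled isoforms holds. Under these symbols stand 88 of 206846 listed isoforms, of which 75 have a row in the isoform table, and 4 of the 22266 loci of the gene table.

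The cells were HEK293, a human embryonic kidney line, of the b-39 (Flp-In T-Rex) subline. All 4 groups carried a b-globin reporter with a premature stop codon (PTC39) at the Flp-In locus. The groups were UPF1/XRN1 (depletion of UPF1 and XRN1), SMG6/XRN1 (depletion of SMG6 and XRN1), XRN1 (depletion of XRN1 alone) and control (siRNA against EGFP), with depletion by siRNA and 1 RNA-seq library per group. Cytoplasmic poly(A)+ RNA, released with digitonin, was sequenced, so the values are meant to describe RNA outside the nucleus. The purity of that fraction was not checked here. With 1 library per group no difference has a replicate check and none carries a p-value. The series also has 4 libraries made from 5' ends and 1 of CAGE, not used here.

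Most vertebrate snoRNAs are cut from introns of a host transcript, and many then guide the modification of ribosomal RNA. Most of those named SNORD (box C/D) direct methylation of the ribose, while a few, such as SNORD22 (U22), are known for a role in the processing of ribosomal RNA. Those named SNORA (box H/ACA) mostly direct the conversion of uridine to pseudouridine. The spliced exons of many non-coding hosts reach the cytoplasm, where ribosomes can start on their short reading frames. Nonsense-mediated decay (NMD) removes RNAs in which translation stops well upstream of an exon junction. UPF1 is the helicase at its centre, SMG6 is an endonuclease that cuts the RNA near the stop codon, and XRN1 is the exonuclease that degrades the downstream fragment from its 5' end.

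The 4 hosts differ in the snoRNAs they carry. In the authors' list the SNHG1 locus, the U22 host gene, contains 9 snoRNA entries, all of box C/D (SNORD22 and SNORD25 to SNORD31). The SNHG12 locus contains 4 entries of both kinds (SNORA16A, SNORA44, SNORA61 and SNORD99). SNHG11 contains 2 entries (SNORA39 and SNORA60) and SNHG15 contains 1 (SNORA9), all of box H/ACA. Of these entries, 3 have a row in the isoform table, where SNORD30 and SNORD99 were listed at 0 in every library and SNORA60 had 2 estimated reads in UPF1/XRN1, which is under the floor of 3 reads. Nearly all values of the 4 hosts below are therefore of the spliced or partly spliced host RNA and not of the snoRNAs.

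In GENCODE release 29 (GRCh38), SNHG1 lies at chr11:62851988-62855914 on the minus strand and SNHG12 at chr1:28578538-28583132 on the minus strand. SNHG11 lies at chr20:38446578-38450921 on the plus strand and SNHG15 at chr7:44983023-44986961 on the minus strand. The files were made on hg19, so these coordinates locate the genes in another build and were not joined to the files by position. All 53 of the hosts' isoforms that fully match a reference transcript were found in release 29 by transcript ID, 9 of them in the same version, so exon models may differ for the others. In the 20 matched isoforms with at least 5% of their gene's signal in any library, a snoRNA gene touched an exon in ENST00000540725 (SNHG1) and ENST00000470977 (SNHG12), and every other snoRNA gene within their span was intronic.

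**Figure D1:**
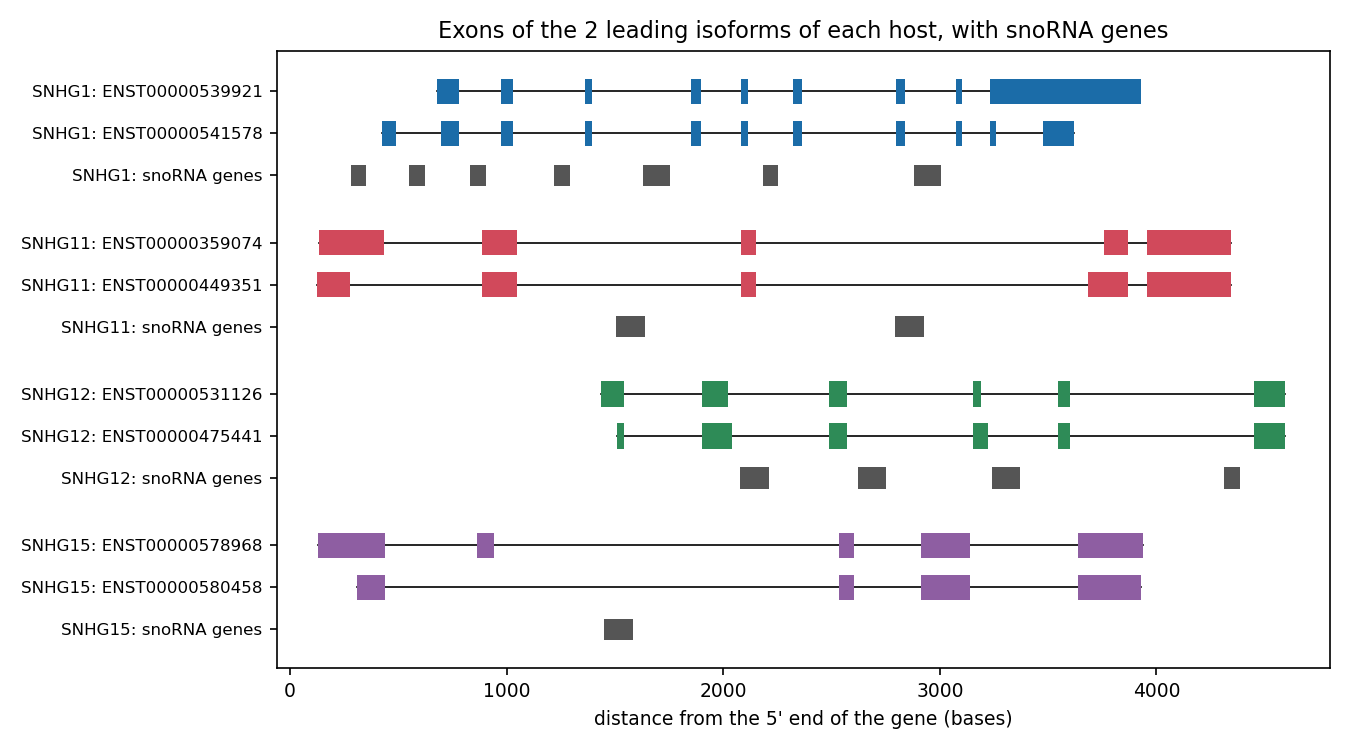
Exons (coloured boxes) of the 2 most abundant reference-matched isoforms of each host, joined by lines for introns, and below them the snoRNA genes of GENCODE release 29 (grey boxes). The x axis is the distance in bases from the 5' end of the gene. No grey box overlaps a coloured box of these isoforms, and SNHG1 has the most snoRNA genes, 7 against 1 in SNHG15.

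The first reading frame of each host's most abundant isoform is shown because its stop codon lies far upstream of exon junctions. Here and below, the first AUG is that of the reference model, and some models start well inside the gene. ENST00000539921 starts 678 bases from the 5' end of SNHG1 and ENST00000531126 starts 1437 bases from that of SNHG12. The first AUG of the RNA in these cells may therefore be another one. The sequences are from the transcripts of GENCODE release 29, read 5' to 3', with the first AUG (written ATG) and its stop codon in capitals. The frames are 129 bases in SNHG1, 102 in SNHG12, 12 in SNHG11 and 57 in SNHG15.
SNHG1 ENST00000539921: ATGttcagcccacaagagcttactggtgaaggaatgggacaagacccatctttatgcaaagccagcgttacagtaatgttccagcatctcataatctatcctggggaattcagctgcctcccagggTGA
SNHG12 ENST00000531126: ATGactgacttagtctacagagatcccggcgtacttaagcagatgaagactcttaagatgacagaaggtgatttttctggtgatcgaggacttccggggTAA
SNHG11 ENST00000359074: ATGagtcaaTGA
SNHG15 ENST00000578968: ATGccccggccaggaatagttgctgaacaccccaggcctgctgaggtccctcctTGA

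These frames end 228 bases before the last exon junction in SNHG1, 122 in SNHG12, 555 in SNHG11 and 246 in SNHG15. Across all 20 isoforms the frame that opens at the first AUG had 3 to 65 codons before its stop and ended 61 to 1008 bases before the last junction, with 1 to 9 junctions after it. All 20 were past the 50 bases usually taken as the limit for NMD. The same held for 16780 of 23618 (71.0%) spliced lincRNA and antisense transcripts of the release, so the property is common among non-coding transcripts. The longest frame from an AUG ended more than 50 bases before the last junction in 16 of the 20. The 4 exceptions were ENST00000444816 of SNHG11 and ENST00000475441, ENST00000531126 and ENST00000483436 of SNHG12. Isoforms of a gene share exons, so these 20 are not independent, and no translation was measured.

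Promoters are shown as sequence context only, since the shared rise of the hosts in UPF1/XRN1 comes from how they were chosen. RefSeq (GRCh38.p14) gave a promoter for SNHG1 (chr11:62855836-62856135, minus strand), SNHG11 (chr20:38446404-38446703, plus strand) and SNHG12 (chr1:28581824-28582123, minus strand), and none was used for SNHG15. Each runs from 250 bases before to 50 bases after the RefSeq start of the gene, 5' to 3' on its strand. Matches to the searched motifs are in capitals. The RefSeq starts differ from the ends of the GENCODE genes given above. For SNHG12 the whole window lies inside the GENCODE gene, and its leading isoform, ENST00000531126, starts downstream of the window.
SNHG1 promoter: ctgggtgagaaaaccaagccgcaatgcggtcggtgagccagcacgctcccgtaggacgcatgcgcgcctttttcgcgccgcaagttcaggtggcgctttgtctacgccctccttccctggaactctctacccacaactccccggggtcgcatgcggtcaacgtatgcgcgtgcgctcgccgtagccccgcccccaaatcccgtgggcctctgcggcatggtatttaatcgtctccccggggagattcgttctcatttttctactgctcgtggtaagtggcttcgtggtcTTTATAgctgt
SNHG11 promoter: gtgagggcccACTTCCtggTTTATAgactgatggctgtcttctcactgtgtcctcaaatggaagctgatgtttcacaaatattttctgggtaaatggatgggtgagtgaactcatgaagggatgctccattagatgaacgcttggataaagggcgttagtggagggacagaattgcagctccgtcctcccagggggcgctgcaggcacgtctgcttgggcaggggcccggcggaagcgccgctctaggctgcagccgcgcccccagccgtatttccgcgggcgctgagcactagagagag
SNHG12 promoter: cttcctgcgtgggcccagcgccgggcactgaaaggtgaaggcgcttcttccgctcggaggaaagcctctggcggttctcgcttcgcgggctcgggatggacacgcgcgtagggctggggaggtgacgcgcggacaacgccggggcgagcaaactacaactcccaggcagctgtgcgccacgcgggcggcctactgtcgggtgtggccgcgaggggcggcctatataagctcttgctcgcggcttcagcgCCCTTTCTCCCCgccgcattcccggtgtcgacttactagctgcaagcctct

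Motifs were searched on both strands, except the run of pyrimidines, which was searched on the gene's strand. TATAAA was present in SNHG1 and SNHG11, on the reverse strand in both, and in 11.5% of 35116 promoters. The match in SNHG1 lies downstream of the RefSeq start, and that in SNHG11 lies near the upstream end of the window. Only these exact letters were searched. The SNHG12 window holds the similar letters tatataag on the gene's strand, shortly upstream of the RefSeq start. Such near forms were not counted, so the lack of an exact match in SNHG12 does not show that it has no similar element. GGAAGT was present in SNHG11, also on the reverse strand, and in 22.8% of promoters. A C followed by 4 pyrimidines is the start typical of TOP mRNAs (the class that codes for ribosomal proteins). Such a run began within 5 bases of the RefSeq start in SNHG12 and in 21.1% of promoters. CACGTG, in 7.26% of promoters, had no match in the 3 hosts. The matches are letters in these windows and say nothing of binding.

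Depth was close between libraries, with 35982585 estimated reads in UPF1/XRN1, the highest, and 31475730 in the control, the lowest. None of the targeted mRNAs served as a check of its label. In the library labelled UPF1/XRN1, UPF1 stood at 8.59 FPKM, against 11.6 in the library labelled XRN1 and 6.71 in the control. Its read ratio was 0.636 (95% interval 0.591 to 0.684) to XRN1 and 0.594 (0.553 to 0.639) to SMG6/XRN1. To the control it was 1.1 (1.01 to 1.19), so UPF1 was below the other XRN1 depletions but not below the control. XRN1 mRNA spanned 6.50 to 10.1 FPKM with its highest value in the library labelled SMG6/XRN1. SMG6 mRNA spanned 4.77 to 7.66 FPKM, also with its highest value there, but by reads it was highest in UPF1/XRN1. It had 1115 reads in UPF1/XRN1, 672 in SMG6/XRN1, 718 in XRN1 and 571 in the control, and the read ratio of SMG6/XRN1 to XRN1 was 0.982 (0.883 to 1.09). The loci of XRN1 and of SMG6 each hold 3 symbols, so their FPKM are not of 1 gene alone, while reads are summed per symbol. XRN1 had 1854 reads in UPF1/XRN1, 1817 in SMG6/XRN1, 1515 in XRN1 and 1781 in the control. All directions below rest on the library labels, and co-depletion names what the labels say of UPF1/XRN1 and SMG6/XRN1. Of 5 genes that HEK293 cells are known to express, VIM (360.4 to 379.6 FPKM), NEFL (31.3 to 57.3) and CDH2 (6.96 to 8.49) were present, while NEFM and PAX2 were under 1 FPKM. EPCAM, an epithelial marker, spanned 98.0 to 126 FPKM, and the markers PTPRC, CD3E, ALB, GFAP and COL1A1 of other cell types were under 1 FPKM in every library.

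Levels of the 4 hosts are given first as FPKM of the locus, a level per length that can be compared between genes. In UPF1/XRN1 the order was SNHG1, SNHG12, SNHG15, SNHG11, and the same order held in XRN1 and in the control. In SMG6/XRN1 SNHG12 and SNHG1 changed places. SNHG11 was the lowest host in every library, and its values rest on 72 to 439 estimated reads. A spread between samples cannot be given for any neighbours in this order.

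SNHG1 stood at 792 FPKM in UPF1/XRN1, 439.9 in SMG6/XRN1, 154 in XRN1 and 55.9 in the control. UPF1/XRN1 was the highest library and the control the lowest. SNHG12, the mixed box C/D and H/ACA host, stood at 479 FPKM in UPF1/XRN1, 445 in SMG6/XRN1, 129 in XRN1 and 37.2 in the control. Its values in both co-depletions were close to each other and far above the other libraries. SNHG15, host of SNORA9, stood at 91.2 FPKM in UPF1/XRN1, 60.6 in SMG6/XRN1, 45.5 in XRN1 and 12.4 in the control, so the widest gap lay between XRN1 and the control. SNHG11 stood at 20.8 FPKM in UPF1/XRN1, 9.07 in SMG6/XRN1, 3.89 in XRN1 and 2.12 in the control. For each of the 4 genes the libraries fell in the same order, with UPF1/XRN1 highest and the control lowest.

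**Figure D2:**
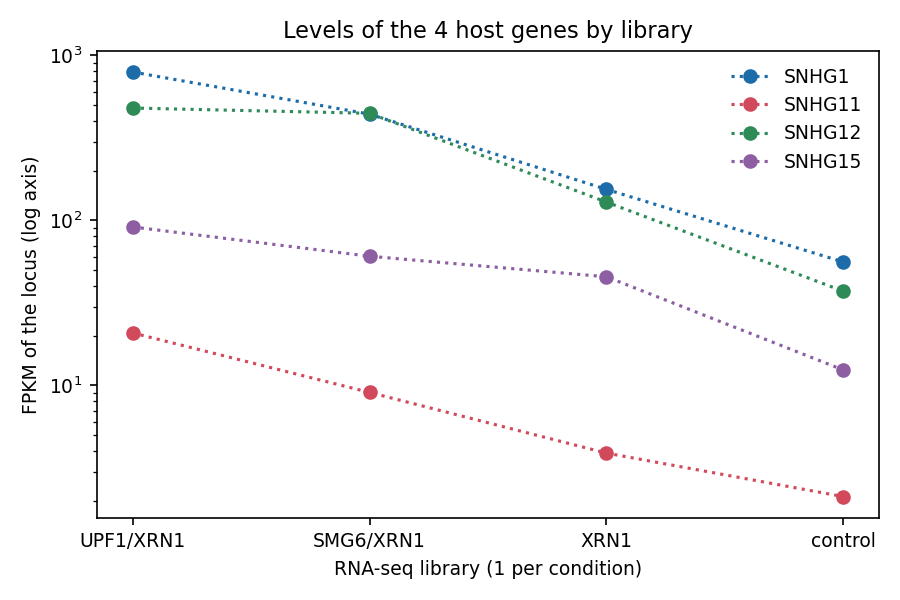
FPKM of each host locus (y axis, log scale) in the 4 RNA-seq libraries (x axis, 1 library per condition), with dotted lines that only join the points of a gene. All 4 hosts are highest in UPF1/XRN1 and lowest in the control, from 792 against 55.9 FPKM for SNHG1 to 20.8 against 2.12 FPKM for SNHG11.

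Changes are log2((a + 1)/(b + 1)) of FPKM, which understates the change of low genes such as SNHG11, and a change was called at 2-fold. Beside them stand ratios of estimated reads on the authors' spike-in scale, with exact 95% intervals that cover counting error only. The comparisons share libraries, so a high or low value of the XRN1 library enters several of them. Fewer cells that express a host and less host RNA per cell cannot be told apart in such bulk RNA.

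The library labelled UPF1/XRN1 was set against the library labelled XRN1 to ask what changes when the NMD helicase is targeted along with the exonuclease. SNHG1 (log2 change 2.35), SNHG11 (2.15) and SNHG12 (1.88) rose, and SNHG15 was at 0.99, just under 2-fold. Of all 12164 genes with a mean of at least 1 FPKM, 2.52% rose by 2-fold and 0.534% fell. The hosts were chosen for large rises in UPF1/XRN1, with neither the library they were set against nor a limit named. Every comparison of UPF1/XRN1 may therefore have been used, and nothing is read from the hosts' 3 of 4 here or from their counts in the other comparisons of UPF1/XRN1. Their read ratios were 5.08 (4.92 to 5.25) for SNHG1, 4.21 (4.02 to 4.41) for SNHG12, 3.20 (2.62 to 3.93) for SNHG11 and 2.47 (2.29 to 2.66) for SNHG15. On reads all 4 passed 2-fold. The FPKM change of SNHG11, 4.45-fold with the added 1, lay above its read interval, and that of SNHG15, 1.98-fold, lay below it.

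The highest hosts outside the choice were EPB41L4A-AS1, at 1.79 on the log2 scale in the same comparison, and GAS5, at 1.71. ZFAS1 (1.40), SNHG6 (1.12) and SNHG7 (1.07) followed. All of them lay above SNHG15, so the choice of the 4 followed no single limit in this comparison.

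The library labelled SMG6/XRN1 was set against XRN1 to ask the same of the endonuclease. SNHG12 (1.78), SNHG1 (1.51) and SNHG11 (1.04) rose and SNHG15 was at 0.41, which makes 3 of 4, where 1.36% of all genes rose and 0.173% fell. The median gene was at 0.12. After centring on it SNHG11 was at 0.93 and no longer past 2-fold, and the calls over all genes were 111 higher and 31 lower, against 166 and 21 without centring. In reads SNHG12 was 3.96 times XRN1 (3.78 to 4.16), SNHG1 2.87 times (2.77 to 2.97), SNHG11 2.52 times (2.04 to 3.13) and SNHG15 1.71 times (1.58 to 1.85). The stated choice does not name the SMG6/XRN1 library, but the hosts were chosen with earlier results of these data known. The XRN1 library is also shared with the comparison above, so nothing is read from the 3 of 4 here.

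Directly between both co-depletions, UPF1/XRN1 over SMG6/XRN1, SNHG12 was at 0.11, SNHG15 at 0.58 and SNHG1 at 0.85. SNHG11 was at 1.11 and was the 1 host of 4 past 2-fold, where 0.312% of all genes rose and 0.312% fell. The call for SNHG11 rests on FPKM, since its isoform signal summed per gene gave 0.34 and its reads a ratio of 1.27 (1.09 to 1.47). By reads SNHG1 was 1.77 times (1.73 to 1.81), SNHG15 1.44 times (1.36 to 1.54) and SNHG12 1.06 times (1.03 to 1.09) its level in SMG6/XRN1. The median gene lay at -0.10, and centring on it turned calls of 38 higher and 38 lower over all genes into 51 and 27.

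The library labelled XRN1 was set against the control to ask what changes when the exonuclease alone is targeted. SNHG15 (1.79), SNHG12 (1.77) and SNHG1 (1.45) rose and SNHG11 was at 0.65, which makes 3 of 4, where 4.11% of all genes rose and 0.370% fell. The choice of the hosts may have used UPF1/XRN1 over control, so a low control value could have entered both the choice and these changes. The median gene was at 0.14, and centring on it gave 362 genes higher and 65 lower, against 500 and 45 without centring. SNHG15, which had the smallest changes of the 4 over XRN1, had the largest here in FPKM. The read ratios gave another order, with SNHG1 at 3.08 (2.90 to 3.27), SNHG12 at 2.98 (2.74 to 3.23), SNHG15 at 2.70 (2.39 to 3.04) and SNHG11 at 1.84 (1.37 to 2.49). The intervals of SNHG1, SNHG12 and SNHG15 overlap.

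Over the control, all 4 hosts rose in both co-depletions. In UPF1/XRN1 the log2 changes were 3.80 for SNHG1, 3.65 for SNHG12, 2.80 for SNHG11 and 2.78 for SNHG15, where 10.2% of all genes rose, 0.575% fell and the median gene was at 0.15. Centring on that median gave 942 genes higher and 148 lower, against 1244 and 70. SNHG1 ranked 6 and SNHG12 8 of 12164 genes. In SMG6/XRN1 they were 3.54 for SNHG12, 2.95 for SNHG1, 2.20 for SNHG15 and 1.69 for SNHG11, where 9.30% of all genes rose, 0.263% fell and the median gene was at 0.25. Centring there gave 635 genes higher and 79 lower, against 1131 and 32. The control in SMG6/XRN1 over control is the library that the choice of the hosts may have used. The reads of SNHG1 in UPF1/XRN1 were 15.6 times the control (14.9 to 16.5), and 14.2 times when each library was set against its own total signal. Those of SNHG12 were 12.5 times (11.6 to 13.5), of SNHG15 6.65 times (5.97 to 7.43) and of SNHG11 5.88 times (4.58 to 7.66).

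**Figure D3:**
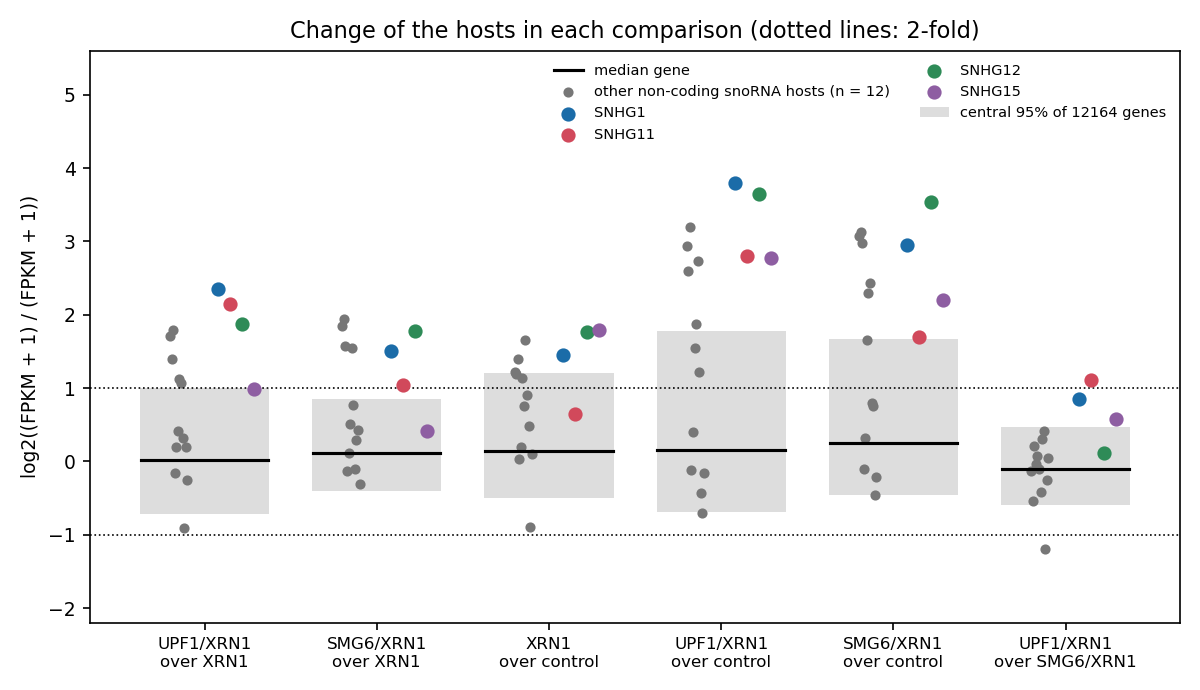
Log2 change in FPKM (y axis, with 1 added to each value) in the 6 comparisons (x axis). Coloured points are the 4 hosts, grey points the 12 other non-coding snoRNA hosts past the filter, grey bars the central 95% of all 12164 genes, black lines the median gene and dotted lines 2-fold. The highest point is SNHG1 in UPF1/XRN1 over control, at 3.80.

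The other non-coding snoRNA hosts served as a wider list of the same kind. Of 18 listed, 12 were measured past the filter. In UPF1/XRN1 over XRN1, 5 of 12 rose (EPB41L4A-AS1, GAS5, ZFAS1, SNHG6 and SNHG7) and none fell, with a median of 0.36 against 0.02 for all genes. In SMG6/XRN1 over XRN1, 4 of 12 rose, led by ZFAS1 at 1.94, with a median of 0.47. In XRN1 over control 5 of 12 rose, with a median of 0.83. In UPF1/XRN1 over control 7 of 12 rose, led by EPB41L4A-AS1 at 3.19, with a median of 1.38. In SMG6/XRN1 over control 6 of 12 rose, led by ZFAS1 at 3.13, with a median of 1.23. DANCR and SNHG16 lay between -0.31 and 0.10 in these comparisons, so not every non-coding host rose. In UPF1/XRN1 over SMG6/XRN1, where SNHG1 was at 0.85, none of the 12 rose, SNHG9 was at -1.19 on 3 and 11 reads, and the median was -0.06. Of the 12 NMD factors listed, none passed 2-fold over XRN1 in either co-depletion (medians 0.27 in UPF1/XRN1 and 0.20 in SMG6/XRN1), and DHX34 and SMG1 rose in XRN1 over control.

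Neighbouring genes were examined because no source used here says that counting took account of strand. SLC3A2, which codes for the heavy chain of amino acid transporters, starts 187 bases from SNHG1 on the opposite strand. It stood at 133 FPKM in UPF1/XRN1, 106 in SMG6/XRN1, 62.2 in XRN1 and 31.6 in the control, the same order of libraries as SNHG1. Its log2 change over XRN1 was 1.08 in UPF1/XRN1 and 0.76 in SMG6/XRN1, against 2.35 and 1.51 for SNHG1. TRNAU1AP, which codes for a protein associated with the selenocysteine tRNA, overlaps the 3' end of SNHG12 by 8 bases on the opposite strand. It stood at 21.9 FPKM in UPF1/XRN1, 18.2 in SMG6/XRN1, 11.1 in XRN1 and 6.94 in the control, with 0.92 and 0.67 over XRN1, against 1.88 and 1.78 for SNHG12. What these pairs share was not tested. WDR74, TAF12, RALGAPB and CCM2, the other neighbours measured, lay between -0.16 and 0.47 in the 3 comparisons of UPF1/XRN1 over XRN1, SMG6/XRN1 over XRN1 and XRN1 over control.

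Isoforms were compared on the spike-in normalised signal, in estimated reads. Isoform values divide reads that several isoforms share, so they are less certain than values of the locus, and an isoform listed at 0 can be a failed estimate. Of the 75 isoforms with a row, SNHG1 had 37, SNHG11 16, SNHG12 12 and SNHG15 10. At least 10 estimated reads in all 4 libraries together were held by 25, 6, 10 and 8 of them, in the same order of genes. The authors marked 37 of the 75 as NMD isoforms, against 14.0% of all 199618. That mark was set exactly where both co-depletions were above 0 and over 2 times the control, so it uses values of UPF1/XRN1, as the choice of the hosts did.

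Among the 49 isoforms with at least 10 reads, 35 rose and 6 fell in UPF1/XRN1 over XRN1, where 30.6% of all 80054 such isoforms rose and 13.5% fell. In SMG6/XRN1 over XRN1, 31 rose and 3 fell, where 28.0% of all rose and 12.0% fell. In XRN1 over control, 22 rose and 9 fell, where 25.8% of all rose and 15.9% fell. Over the control, 38 rose and 5 fell in UPF1/XRN1, where 37.6% of all rose and 12.4% fell, and 37 rose and 3 fell in SMG6/XRN1, where 36.5% of all rose and 11.5% fell. In UPF1/XRN1 over SMG6/XRN1, 9 rose and 7 fell, where 16.8% of all rose and 15.8% fell. For SNHG1 itself, 17 of 25 isoforms rose and 4 fell in UPF1/XRN1 over XRN1, so the rise of the locus did not hold for each isoform. All 6 isoforms of SNHG11 past the filter rose there, with 7 of 10 of SNHG12 and 5 of 8 of SNHG15. Reads were summed over all 4 libraries, so an isoform could pass through a co-depletion where its host is high. In SNHG11, ENST00000421599 passed on 26 reads in UPF1/XRN1 and 29 in SMG6/XRN1, while ENST00000444816, with 8 in the control, did not. The hosts were also chosen for rises in UPF1/XRN1, so no excess over the shares of all isoforms is read from these counts.

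ENST00000539921, a lincRNA isoform of 9 exons, led SNHG1 in the libraries other than the control. It had 11232 reads in UPF1/XRN1, 5339 in SMG6/XRN1, 1822 in XRN1 and 326 in the control. Its share of the SNHG1 signal was 45.4% (44.8 to 46.0), 43.7% (42.9 to 44.6), 40.7% (39.3 to 42.2) and 21.4% (19.3 to 23.5) in the same libraries. The control share lay below the others, and there ENST00000545440 held slightly more, 22.6% (20.5 to 24.8), with overlapping intervals.

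ENST00000541578, of 11 exons, followed a different order. It had 4050 reads in UPF1/XRN1, 1687 in SMG6/XRN1, 140 in XRN1 and 164 in the control. Its log2 change was 4.73 in UPF1/XRN1 over XRN1 and 3.66 in SMG6/XRN1 over XRN1, against -0.16 in XRN1 over control. The 2 libraries without co-depletion thus had similar listed values of it. ENST00000545440 went the other way as a share, with 10.8% in UPF1/XRN1, 11.2% in SMG6/XRN1, 15.8% in XRN1 and 22.6% in the control, although it rose over XRN1 in UPF1/XRN1 (1.79) and in SMG6/XRN1 (1.02), and over the control in XRN1 (1.11). ENST00000542112 was listed at 0 in UPF1/XRN1 and had 295 reads in SMG6/XRN1, 532 in XRN1 and 41 in the control. If that 0 is not a failed estimate, ENST00000542112 was at least 193-fold lower in UPF1/XRN1 than in XRN1, against the floor of 3 reads. The locus rose, and ENST00000541578 of the same gene rose, so reads divided otherwise between isoforms cannot be told apart from a fall. The same limit holds for the value of ENST00000541578 in XRN1 over control. There ENST00000542112 was 3.77 higher on the log2 scale. TCONS_00034810 and TCONS_00034813 are assembled isoforms of SNHG1 with a junction outside the reference. TCONS_00034810 had 2396 reads in UPF1/XRN1, 1280 in SMG6/XRN1, 421 in XRN1 and 280 in the control. TCONS_00034813 had 1088 reads in UPF1/XRN1, 504 in SMG6/XRN1 and 228 in XRN1. It was listed at 0 in the control, which can be a failed estimate.

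SNHG12 kept the same leading isoform in every library. ENST00000531126, of 6 exons, had 6566 reads in UPF1/XRN1, 5539 in SMG6/XRN1, 1251 in XRN1 and 423 in the control. It held 64.9% (64.0 to 65.9), 66.5% (65.5 to 67.5), 56.7% (54.6 to 58.8) and 54.3% (50.7 to 57.8) of the signal. The co-depletions lay above the other libraries by more than counting error. ENST00000475441 held its largest share in XRN1 (25.9%), against 15.8% in UPF1/XRN1, 14.4% in SMG6/XRN1 and 12.7% in the control. ENST00000483436 had 874 reads in UPF1/XRN1, 815 in SMG6/XRN1, 86 in XRN1 and 50 in the control. As listed, it rose over XRN1 in both co-depletions (3.22 and 3.31) and was under 2-fold in XRN1 over control (0.86). ENST00000541578 of SNHG1 was listed likewise, with the limit given there on how reads were divided.

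SNHG15 had a different makeup in XRN1. ENST00000578968, of 5 exons, held 66.7% (64.9 to 68.5) of the signal in UPF1/XRN1, 68.9% (66.6 to 71.2) in SMG6/XRN1, 45.2% (42.0 to 48.4) in XRN1 and 76.4% (71.8 to 80.6) in the control. The XRN1 library stood apart as the lowest. There ENST00000438705, of 3 exons, held 24.5% (21.8 to 27.3), against 10.9% in UPF1/XRN1, 8.41% in SMG6/XRN1 and 4.15% in the control. It had 282 reads in UPF1/XRN1, 132 in SMG6/XRN1, 237 in XRN1 and 16 in the control, so it was 3.97 higher on the log2 scale in XRN1 over control. ENST00000580458 had 423 reads in UPF1/XRN1, 298 in SMG6/XRN1 and 225 in XRN1 and was listed at 0 in the control. If that 0 is not a failed estimate, this isoform was at least 79-fold higher in XRN1 than in the control. Over XRN1, the leading isoform of SNHG15 rose in both co-depletions (1.86 and 1.38). On the same signal the whole gene was at 1.30 in UPF1/XRN1 and 0.77 in SMG6/XRN1 over XRN1. In FPKM, another measure, the locus was under 2-fold in both.

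The isoforms of SNHG11 rest on few reads. ENST00000359074, of 5 exons, had 126 reads in UPF1/XRN1, 114 in SMG6/XRN1 and 40 in XRN1 and was listed at 0 in the control. ENST00000449351, also of 5 exons, had 104 reads in UPF1/XRN1, 93 in SMG6/XRN1, 42 in XRN1 and 11 in the control. In the control the leading isoform was ENST00000434729, with 25 of 72 reads and a share of 34.7% (23.9 to 46.9). That isoform had 84 reads in UPF1/XRN1, 22 in SMG6/XRN1 and 16 in XRN1, and it was 1.69 higher on the log2 scale in UPF1/XRN1 over SMG6/XRN1. The first 2 isoforms had -0.04 and -0.02 in the same comparison.

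**Figure D4:**
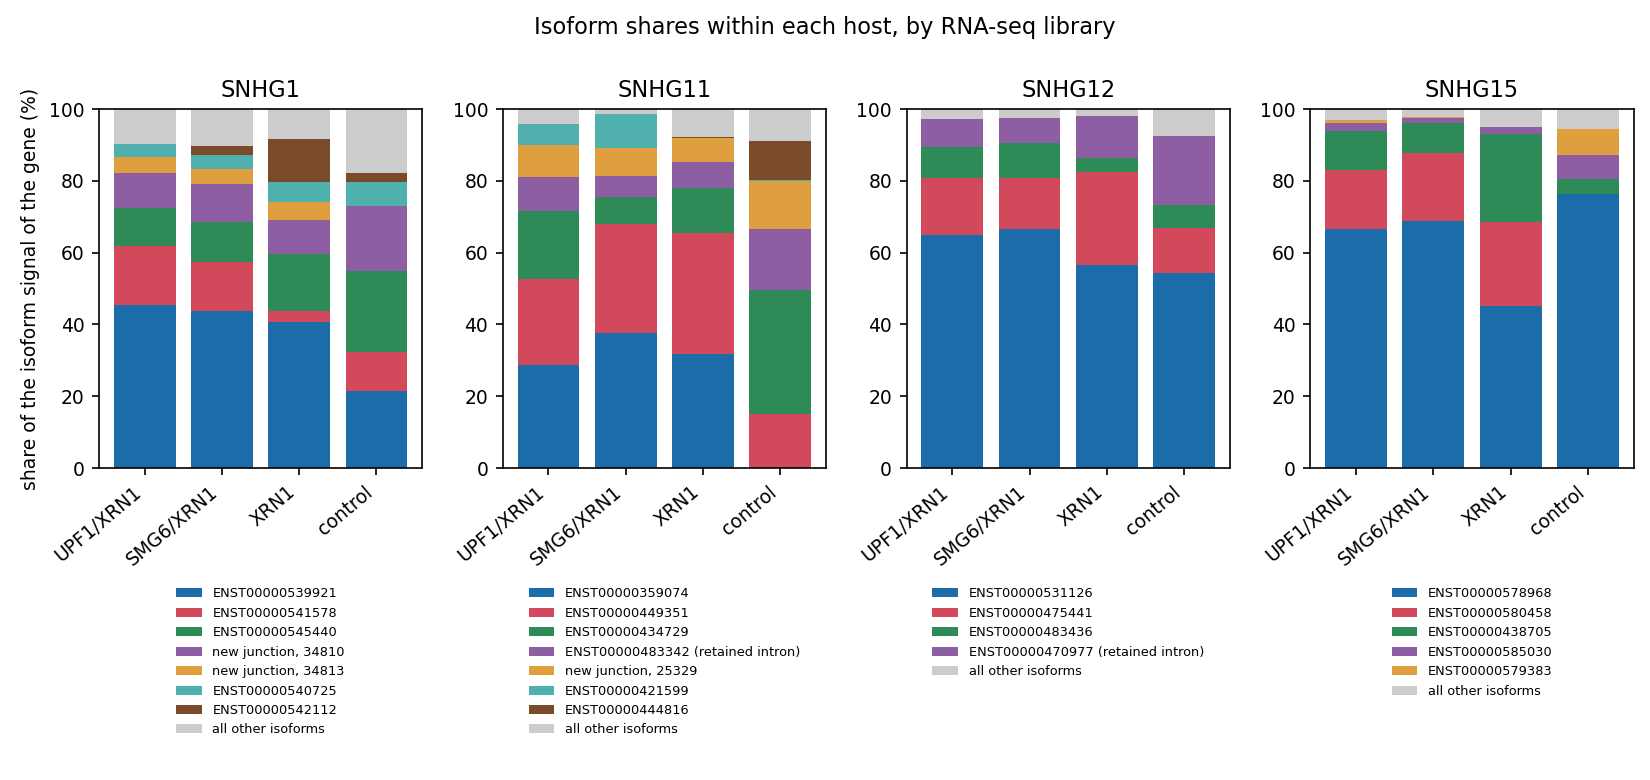
Share of each host's isoform signal (y axis, percent) held by the isoforms with at least 5% in any library, in the 4 RNA-seq libraries (x axis). Colours are isoforms within a gene, named below its panel, and grey is all others. The dark blue isoform of SNHG1 holds 45.4% in UPF1/XRN1 against 21.4% in the control, and that of SNHG15 is lowest in XRN1, at 45.2%.

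Retained-intron isoforms of SNHG12 and SNHG1 took a smaller part of the signal in UPF1/XRN1, SMG6/XRN1 and XRN1 than in the control. In SNHG12 they held 8.14% (7.61 to 8.69) in UPF1/XRN1, 7.13% (6.59 to 7.70) in SMG6/XRN1, 12.7% (11.4 to 14.2) in XRN1 and 23.2% (20.3 to 26.4) in the control. In SNHG1 they held 2.93% (2.72 to 3.15), 3.72% (3.39 to 4.07), 3.13% (2.64 to 3.68) and 6.71% (5.48 to 8.06) in the same libraries. In both genes the control interval lay above those of the other libraries. In SNHG11 they held 9.96% (7.38 to 13.2), 5.77% (3.30 to 8.83), 14.7% (8.69 to 21.6) and 25.8% (16.7 to 38.1). There the control interval overlapped that of XRN1, on 18 reads in XRN1 and 19 in the control. The class follows the label in release 29, and SNHG15 had no isoform with that label. Its ENST00000577700, of 2 exons and 3116 bases, is labelled lincRNA and was counted as spliced. That isoform held 0.264% in UPF1/XRN1, 0.807% in SMG6/XRN1, 2.01% in XRN1 and 3.47% in the control. In reads the retained-intron class did not shrink in SNHG12, with 823 in UPF1/XRN1, 594 in SMG6/XRN1, 281 in XRN1 and 181 in the control. Spliced isoforms of SNHG12 had 9125, 7635, 1915 and 585.

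Genes with the most similar profiles over the 4 libraries were ranked by the Euclidean distance between log2(FPKM + 1) profiles, each centred on its mean, among 7835 genes. The profiles have 4 points and many genes can lie close by. Nearest to SNHG1 were SEPT7P2 (distance 0.19), CBWD7 (0.34), EPB41L4A-AS1, ARHGAP11B and CUZD1 (0.53 each), against a median of 2.78 over all genes. SNHG12 had TBC1D3C (0.27), TBC1D3F (0.31), EPB41L4A-AS1 (0.43), PMS2P3 (0.44) and SEPT7P2 (0.45). Many of these genes belong to duplicated families that share reads, so their own values are uncertain. SNHG11 was nearest to STX1A (0.28), a syntaxin gene, RP11-33B1.1 (0.33), RRN3P1 (0.43), TNFRSF12A (0.44), which codes for a receptor of the TNF family, and CTD-2162K18.5 (0.51). SNHG15 was nearest to AC093838.4 (0.15), EMC9 (0.17), which codes for a subunit of the ER membrane protein complex, AC093616.4 (0.17), RP4-564F22.2 (0.22) and AC125232.1 (0.23). None of the hosts was among the 5 nearest genes of another, and the smallest distance between them was 0.57, for SNHG1 and SNHG12.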

How the data were processed

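RNA sequencing of cytoplasmic poly(A)+ RNA (ScriptSeq v2) gave 1 library per group, with groups taken from the labels. Per the submitters' processing notes, the tools were Cufflinks 2.0.2, TopHat2 2.0.6, Bowtie 0.12.7 and CASAVA 1.8.2 and the build hg19. The authors deposited gene values as FPKM per locus. The isoform values are a signal that the authors deposited as spike-in normalised, with the computation of its factor not given in the sources used here. Identifiers and TRUE or FALSE marks fill the remaining columns that the authors deposited.

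The value of 1 read was taken from the step in low locus sums (3.72 in UPF1/XRN1, 4.25 in SMG6/XRN1, 4.05 in XRN1 and 3.85 in the control). Of loci with at most 20 reads, 84.6% to 86.7% came out whole within 0.01. Reads shared among isoforms leave fractions elsewhere, so reads are estimates and a count test was not applied. Changes used a pseudocount of 1 and a mean of at least 1 FPKM, with calls at 2-fold. Intervals (95%) are exact conditional binomial for read ratios and Clopper-Pearson for shares, and cover counting error only. The floor was 3 reads.

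The rule for names took the 4 hosts, their isoforms with at least 5% of the signal in any library, and the 5 nearest profiles per host (mean of at least 5 FPKM, no 0). Other isoforms, hosts and neighbours were named from lists or for their values. The members and lists were chosen with earlier results of these data known. Alternatives changed the pseudocount, filter, table, centring and isoforms. The code was tested on simulated data. Python 3.11.15, pandas 2.3.3, numpy 2.4.6 and scipy 1.17.1 were used.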

Additional observations from a re-analysis of the deposited data

How the results depend on the processing

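No paired analysis was possible because each group had 1 library, and for the same reason no library could be left out. Over 96 recomputed log2 changes of the 4 hosts, none changed direction and 90 stayed on their side of 2-fold. SNHG15 in UPF1/XRN1 over XRN1 reached 1.0 with a pseudocount of 0.1 FPKM, 1.30 with isoform signals summed per gene and 1.27 with these scaled to equal library totals. SNHG11 in UPF1/XRN1 over SMG6/XRN1 was at 0.34 and 0.44 with summed signals, plain and scaled to equal totals, so that 0 hosts passed 2-fold there in both settings, against 1. SNHG11 in SMG6/XRN1 over XRN1 was at 0.93 after centring. The cause of these shifts was not tested. Limited to full matches, the leading isoform held 53.5% of SNHG1, against 45.4%, and 66.0% of SNHG12, against 64.9%.

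Counts of all genes past 2-fold depended on how low genes were treated. With a pseudocount of 0.1 FPKM they were 744 in UPF1/XRN1 over XRN1 (529 higher, 215 lower; 371 with a pseudocount of 1), 396 in SMG6/XRN1 over XRN1 (187), 1080 in XRN1 over control (545), 1801 in SMG6/XRN1 over control (1163) and 196 in UPF1/XRN1 over SMG6/XRN1 (74 higher, 122 lower; 76). With a mean of at least 5 FPKM, which leaves fewer genes tested, they were 244, 113, 340, 746 and 31 (12 higher, 19 lower) in these comparisons and 855 in UPF1/XRN1 over control (1314). Centring gave 714 in SMG6/XRN1 over control (635 higher, 79 lower). Depth limits SNHG11 most, with 72 reads in the control.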
